A study of Mus musculus with 10 samples.

Results

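The comparison was between mouse embryonic stem cells of the line NG4 transfected with siRNA against Socs3 and the same cells transfected with siRNA against Rnf31. It rests on the 2 arrays labelled siSocs3 and the 2 labelled siRnf31, which are 4 of the 10 expression arrays of the series, and covers all 18194 genes measured by a probe set with 1 gene symbol. In every group, the siRNA was introduced as the cells were plated, differentiation was carried out with retinoic acid, and RNA was collected after 48 h. The other groups, of 2 arrays each, received siRNA against Sox17 (siSox17), siRNA against Fbxw7 (siFbxw7) or an siRNA without a target (siNonTarget). Their levels are given here only to place the compared arrays. All values come from 1 cell line, and the labels do not say whether the 2 arrays of a group came from separate cultures. The p-values therefore measure the spread between these arrays, which may be technical.

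Socs3 is an intracellular inhibitor of cytokine receptors that signal through JAK kinases and STAT3. In mouse embryonic stem cells the cytokine LIF acts through STAT3 to sustain the naive pluripotent state, and STAT3 switches on Socs3 in return. Rnf31, also called HOIP, is the catalytic subunit of LUBAC, the ligase complex that joins ubiquitin into linear chains and passes signals from TNF receptors to NF-kB. Retinoic acid binds nuclear receptors on DNA, drives stem cells out of pluripotency, and switches on its own receptor Rarb, the retinoic acid-degrading enzyme Cyp26a1 and HOX genes.

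The promoters of 3 known targets of these 2 signals hold matches to motifs of STAT factors or retinoic acid receptors. Each stretch printed here is the last 170 bases before the RefSeq start site (assembly GRCm38.p6), written 5′ to 3′ on the strand of the gene. Capitals mark the match to a STAT motif, TTCNNNGAA, in Socs3 (chr11:117969367-117969536, minus strand) and to retinoic acid response elements in the others. These are direct repeats of 2 half-sites with 5 bases between them. The half-sites are GGTTCA and AGTTCA in Rarb (chr14:16575477-16575646, minus strand) and AGTTCA both times, read on the opposite strand, in Cyp26a1 (chr19:37697638-37697807, plus strand).
Socs3: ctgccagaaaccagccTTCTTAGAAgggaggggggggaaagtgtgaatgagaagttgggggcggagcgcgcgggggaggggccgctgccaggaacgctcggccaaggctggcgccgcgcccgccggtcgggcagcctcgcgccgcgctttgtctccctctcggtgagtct
Rarb: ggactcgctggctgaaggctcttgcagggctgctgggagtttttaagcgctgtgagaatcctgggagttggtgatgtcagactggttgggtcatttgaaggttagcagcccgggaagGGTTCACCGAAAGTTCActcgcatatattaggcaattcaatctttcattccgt
Cyp26a1: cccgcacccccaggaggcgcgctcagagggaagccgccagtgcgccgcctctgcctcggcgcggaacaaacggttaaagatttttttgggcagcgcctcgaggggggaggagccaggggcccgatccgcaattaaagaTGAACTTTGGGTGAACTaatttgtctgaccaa

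The match lies 145 bases before the start site in Socs3, 36 bases before it in Rarb and 15 bases before it in Cyp26a1. The levels of these 3 genes are given below with the groups they belong to. A match is a description of letters and not a shown binding site, and the arrays measured no binding.

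The deposited intensities had array medians of 46.39 to 47.95 over the 10 arrays. Levels below are log2 of these intensities, and a difference is the mean of the siSocs3 arrays minus the mean of the siRnf31 arrays with its standard error (SE) from limma, n = 2 arrays a group. The siSocs3 arrays resembled each other more than any other array (Pearson's r = 0.9972 across genes, which are not independent). The siRnf31 arrays did not pair up in this way. Their own correlation was 0.9952, and each lay closer to an array of another group. A gap of 2-fold or more between the arrays of a group was seen in 13 genes for siSocs3 and in 105 for siRnf31. The defining markers of undifferentiated stem cells were measured in full, 10 of 10, with levels of 9.42 to 14.25. Their summed linear intensity was 53469.3 and 51417.2 on the siSocs3 arrays and 42304.5 and 34385.5 on the siRnf31 arrays. Summed fibroblast feeder cell markers, 10 genes, were 1182.04 and 1346.18 on the siSocs3 arrays and 1186.08 and 1957.35 on the siRnf31 arrays, so the second siRnf31 array stood above the other 3. Of the 10 markers, 0 were called by limma (3 at an unadjusted p under 0.05, beside 3072 of all 18194 genes). The median difference of the markers was -0.11 (-0.52 without siRnf31 replicate 1 and 0.11 without siRnf31 replicate 2). The part of that difference in the results below was not tested.

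The transcripts of the targeted genes gave no check of the labels. Socs3 stood at 10.66 and 10.11 on the arrays labelled siSocs3 and at 10.18 and 10.30 on the arrays labelled siRnf31. The groups overlapped, and the difference was 0.14 ± 0.24 (limma adjusted p = 0.823). Its other 2 probe sets differed by 0.32 ± 0.19 and 0.27 ± 0.19, also without a fall. Rnf31 stood at 7.95 and 7.88 on the siSocs3 arrays and at 7.13 and 7.59 on the siRnf31 arrays. Both siRnf31 arrays were lower, but the difference of 0.56 ± 0.17 missed the threshold (adjusted p = 0.135). The siNonTarget arrays read 7.91 and 7.62 for Rnf31, so 1 siRnf31 array lay close to a control. No protein was measured.

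At a limma adjusted p under 0.05, 387 genes differed between siSocs3 and siRnf31, 2.13% of those tested. Of these, 273 were higher in siSocs3 (1.5% of genes tested) and 114 were lower (0.627%). At least 2-fold differences were found for 173 genes, 142 higher and 31 lower. At an unadjusted p under 0.05, the count was 3072 of all 18194 genes, 1514 higher and 1558 lower. The called differences ran from 0.45 to 3.04 in absolute size on the log2 scale. The median signed difference over all genes was 0.01, in which rises and falls offset each other. The median level of the higher genes was 6.87 in siRnf31, close to the 7.01 of all genes, and 8.14 in siSocs3. The lower genes had a higher median level of 8.30 in siRnf31 and stood at 7.36 in siSocs3. In bulk RNA, fewer cells of a type and less RNA per cell cannot be told apart. Leaving out 1 array changed the count. With siSocs3 replicate 1 left out it was 22, with siSocs3 replicate 2 left out 160, with siRnf31 replicate 1 left out 141 and with siRnf31 replicate 2 left out 122. All 387 differences kept their sign in each of these fits, in which the lone array was assumed to vary like the other groups. In all 4 of them, 20 of the higher and 0 of the lower genes were called (without siSocs3 replicate 1, 711 genes were lower at an unadjusted p under 0.05). Of the 59 called genes picked by the naming rule, 5 passed without each array in turn, namely Bex6, Tcstv3, Fbxo15, Tex19.1 and Ndrg1.

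**Figure D1:**
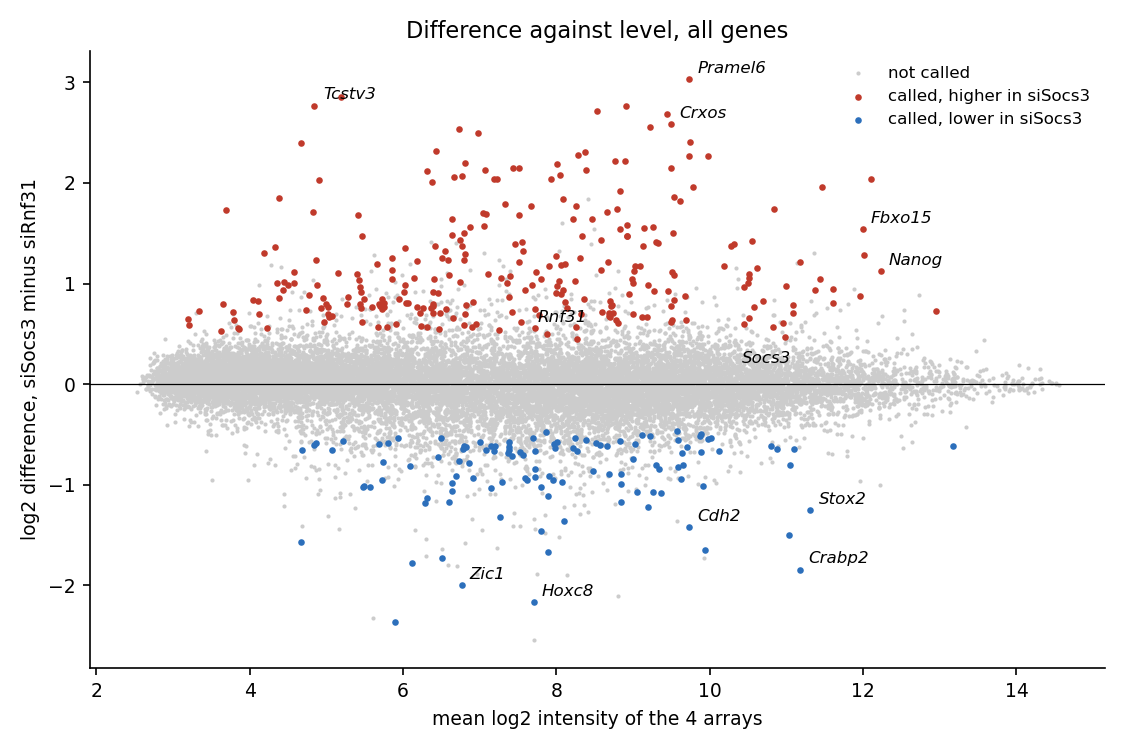
Difference (siSocs3 minus siRnf31, log2) of each of 18194 genes against its mean level on the 4 arrays (log2 intensity), with the 273 genes called higher in red and the 114 called lower in blue. The called genes range from dim to bright, the largest rises reach 3.04 (Pramel6), and the targeted genes Socs3 (0.14) and Rnf31 (0.56) lie among the uncalled genes in grey.

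Genes of the cleavage-stage embryo, which are read briefly when the embryonic genome is switched on and in a rare subset of stem cells, had the largest median difference of the 37 lists examined. Of the 9 measured genes of this list (the 2-cell stage and the Zscan4 programme), 8 were higher in siSocs3, beside 1.5% of all genes. All 9 had both siSocs3 arrays above both siRnf31 arrays, which holds for 27.3% of all genes. The median difference of the list was 2.03. Tcstv3, a gene of that stage, stood at 6.39 and 6.07 in siSocs3 and at 3.17 and 3.75 in siRnf31. It rose by 2.77 ± 0.21 (adjusted p = 0.00149). Its neighbour Tcstv1 read 6.12 and 5.71 against 3.49 and 4.27, a rise of 2.03 ± 0.24 (adjusted p = 0.00796). In siRnf31 both genes lay near the bottom of the intensity range, and the groups did not overlap. The files used here give no detection call, so differences from levels this low are measured values that may fall short of the true size. Trim43a, a tripartite motif protein of the early embryo, read 10.20 and 9.57 against 7.01 and 7.32 and rose by 2.71 ± 0.32 (adjusted p = 0.00796). Ubtfl1, an HMG-box protein needed before implantation, rose by 2.55 ± 0.36, and the zinc finger gene Zfp352 by 2.22 ± 0.31 (adjusted p = 0.0118 and 0.0112). Tdpoz1 (1.68 ± 0.24) and Arg2, a mitochondrial arginase (1.64 ± 0.23), both had an adjusted p of 0.0112. Duxf3, a homeobox factor that switches on this programme, rose least, by 0.62 ± 0.13 (adjusted p = 0.0465). Calcoco2, an autophagy receptor, was the uncalled member at 0.89 ± 0.26 (adjusted p = 0.133). Without siSocs3 replicate 1 only Tcstv3 of the 8 passed. Without the other arrays in turn, 5 to 7 did.

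The Pramel genes, leucine-rich repeat proteins of germ cells and the early embryo, held the largest rise of all. Pramel6 stood at 11.35 and 11.15 in siSocs3 and at 7.61 and 8.82 in siRnf31, a rise of 3.04 ± 0.50 (adjusted p = 0.02). Pramel7, which is known to act downstream of LIF and STAT3 in maintaining pluripotency, read 10.32 and 10.26 against 7.11 and 7.94 and rose by 2.77 ± 0.40 (adjusted p = 0.0119). Pramel18 rose by 2.27 ± 0.35 (adjusted p = 0.0162). In these 3 genes the siSocs3 arrays lay far above both siRnf31 arrays, which themselves were well apart from each other. The other members were Pramel13 (0.89 ± 0.26), Pramel12 (0.81 ± 0.20) and Pramel1 (0.15 ± 0.12), none of them called. In this list of 6, 3 were called higher, beside 1.5% of all genes, and the median was 1.58. Members of this family, of Tcstv and of Rhox may share stretches of sequence, which were not compared here. A probe set may thus read more than 1 of them, so their values are uncertain at the level of single genes. Of the 3 called genes, 0 passed without siSocs3 replicate 1 or without siRnf31 replicate 1, 1 without siSocs3 replicate 2 and all without siRnf31 replicate 2.

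Other genes among the 15 largest rises, counted without clone-like gene names, came from several functions. Bex6, of the Bex family of small signalling adaptors, read 7.30 and 5.94 against 3.68 and 3.87, a rise of 2.85 ± 0.35 (adjusted p = 0.00796). Crxos, an oocyte and stem cell homeobox gene, read 11.25 and 10.34 against 8.12 and 8.30 and rose by 2.58 ± 0.45 (adjusted p = 0.0252). Plac1, a placental protein, read 8.15 and 8.29 against 5.32 and 6.13 and rose by 2.49 ± 0.27 (adjusted p = 0.00558). In each of these genes the gap between the groups was wider than the gap within either group, although the siSocs3 arrays of Bex6 and Crxos were well apart. The remaining rises were Nat8f2 (2.20 ± 0.36), the interferon-inducible nuclear body gene Sp110 (2.19 ± 0.40), the spermatogenic factor Spz1 (2.15 ± 0.35), the chemokine Ccl3 (2.13 ± 0.35) and the metalloprotease Mep1b (2.07 ± 0.37). Their adjusted p-values lay between 0.0195 and 0.0307. Mep1b lost its call without any 1 of the 4 arrays, and Nat8f2, Sp110, Spz1 and Ccl3 lost theirs without any 1 except siRnf31 replicate 2.

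**Figure D2:**
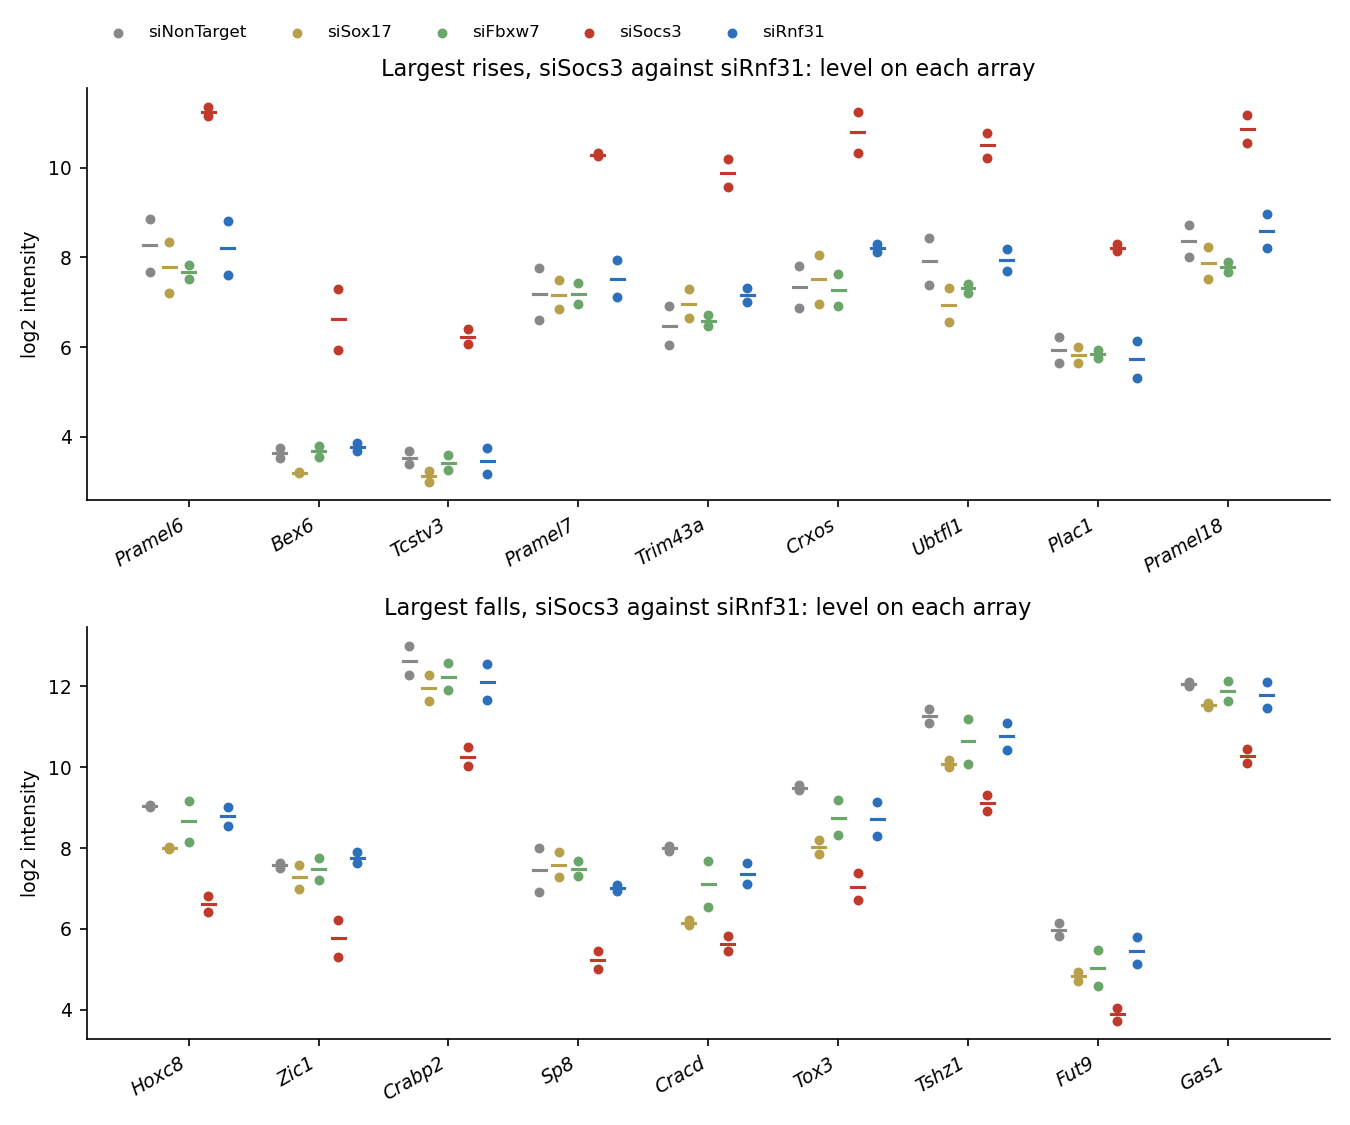
Level (log2 intensity) of the 9 largest called rises (top) and the 9 largest called falls (bottom), clone-like gene names skipped, on each of the 10 arrays, 2 points a group with a bar at the group mean. In every gene both siSocs3 points lie on 1 side of both siRnf31 points, and the siNonTarget mean lies nearer to the siRnf31 mean than to the siSocs3 mean. Examples are Tcstv3 (3.17 and 3.75 in siRnf31) and Hoxc8 (8.55 and 9.03). In some genes, such as Crxos and Tox3, both siNonTarget points lie beyond the siRnf31 points, on the side away from siSocs3.

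Of 21 measured naive pluripotency genes, 5 were called higher in siSocs3, beside 1.5% of all genes, 0 were called lower and 16 were not called. Estimates were above 0 for 20, and the median difference was 0.86 (0.52 without siRnf31 replicate 2 and 1.14 without siRnf31 replicate 1). Both siSocs3 arrays lay above both siRnf31 arrays in 19 of them, beside 27.3% of all genes. Fbxo15, an F-box gene marking undifferentiated stem cells, stood at 12.97 and 12.56 in siSocs3 and at 11.21 and 11.24 in siRnf31, a rise of 1.54 ± 0.16 (adjusted p = 0.00444). Nanog, a homeobox factor of the pluripotent core, read 12.87 and 12.71 against 12.06 and 11.28 and rose by 1.12 ± 0.22 (adjusted p = 0.0431). Klf2, a Krüppel-like factor of the naive state, read 11.57 and 11.39 against 10.73 and 10.28 and rose by 0.98 ± 0.16 (adjusted p = 0.0192). For Nanog and Klf2 the second siRnf31 array was the lowest, and the first stood closer to siSocs3. The adhesion gene Jam2 rose by 1.11 ± 0.21 (adjusted p = 0.0337), and Prdm14, a regulator of pluripotency and of primordial germ cells, by 1.06 ± 0.14 (adjusted p = 0.00993). Several well known members missed the threshold with estimates of like size. Klf4 differed by 1.05 ± 0.35 (adjusted p = 0.174), with siSocs3 at 11.12 and 10.68 and siRnf31 at 10.38 and 9.32. Tfcp2l1 differed by 0.96 ± 0.26 (adjusted p = 0.11), Esrrb by 0.92 ± 0.23 (0.0837), Klf5 by 0.86 ± 0.25 (0.124) and Zfp42 by 0.83 ± 0.17 (0.0507). Tbx3 differed by 0.37 ± 0.19 (adjusted p = 0.368). Only Dusp6, a phosphatase of the ERK pathway, had an estimate below 0, at -0.29. The count rests on which siRnf31 array is used: 9 members were called without siRnf31 replicate 1 and 1 without siRnf31 replicate 2. It was 1 without siSocs3 replicate 1 and 2 without siSocs3 replicate 2.

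The median difference of general pluripotency genes was smaller, and this was not tested. Of 17 measured, 2 were higher, beside 1.5% of all genes, and 0 lower, and the median was 0.46. Zfp296, a zinc finger gene of stem cells and the germline, stood at 9.67 and 9.54 in siSocs3 and at 8.09 and 8.03 in siRnf31 and rose by 1.54 ± 0.17 (adjusted p = 0.00608). Dppa2, a chromatin factor that primes cleavage-stage genes, read 13.37 and 13.26 against 12.71 and 12.46 and rose by 0.73 ± 0.12 (adjusted p = 0.0183). Both siSocs3 arrays lay above both siRnf31 arrays in these genes. Leaving out siSocs3 replicate 1 or 2 left 0 or 1 calls in this list, and leaving out siRnf31 replicate 1 or 2 left 3 or 1. Pou5f1 (Oct4) read 12.53 and 12.63 against 12.36 and 11.45, with 1 low siRnf31 array, and its difference of 0.67 ± 0.32 missed the threshold (adjusted p = 0.333). Sox2 differed by 0.09 ± 0.14 (adjusted p = 0.81). Myc was at -0.26 ± 0.16 (adjusted p = 0.451). Genes of the formative and primed states had a median of 0.04 over 15 genes (-0.083 without siSocs3 replicate 2). Of the 15, 1 was called lower (Cdh2, described below) and 0 higher, beside 2.13% of all genes called. Fgf5 was at 0.04 ± 0.17 and Otx2 at 0.09 ± 0.12, and Otx2 lay near background on all 4 arrays. The DNA methyltransferase list of 13 genes had 0 calls by limma. At an unadjusted p under 0.05 it had 5 genes, beside 3072 of all 18194. The median of this list was 0.24 (0.089 without siSocs3 replicate 1 and 0.096 without siRnf31 replicate 2). Dnmt3b differed by 0.62 ± 0.15 (adjusted p = 0.0716), Dnmt3l by 1.15 ± 0.40 (0.191) and Dnmt3a by -0.01 ± 0.20 (0.984).

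Germline genes held more called members than any other list, with 10 of 22 measured genes higher and 0 lower and a median of 0.73. Over all genes, 1.5% were called higher. Tex19.1, which restrains retrotransposons in germ cells and placenta, stood at 10.17 and 9.89 in siSocs3 and at 8.67 and 8.58 in siRnf31. It rose by 1.40 ± 0.13 (adjusted p = 0.00336) and passed without each array in turn. The X-linked reproductive homeobox genes rose together: Rhox6 by 1.71 ± 0.23 (adjusted p = 0.00993), Rhox9 by 1.47 ± 0.26 (0.0287) and Rhox5 by 1.04 ± 0.17 (0.0183). Rhox5 read 12.01 and 11.91 against 10.91 and 10.92, with little gap within either group. Dazl, an RNA-binding protein of germ cells, read 9.61 and 9.76 against 8.82 and 8.19 and rose by 1.18 ± 0.22 (adjusted p = 0.0322). The other called members were Prdm14, named above, and Stk31 (0.81), Tex101 (0.75), Tex19.2 (0.75) and Tdrd12 (0.71). Prdm1, which specifies primordial germ cells, and the later germ cell genes Stra8 and Ddx4 had estimates of -0.55, -0.40 and -0.34 and were not called. The count fell to 1 without siSocs3 replicate 1 and to 3 or 4 without any other array.

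**Figure D3:**
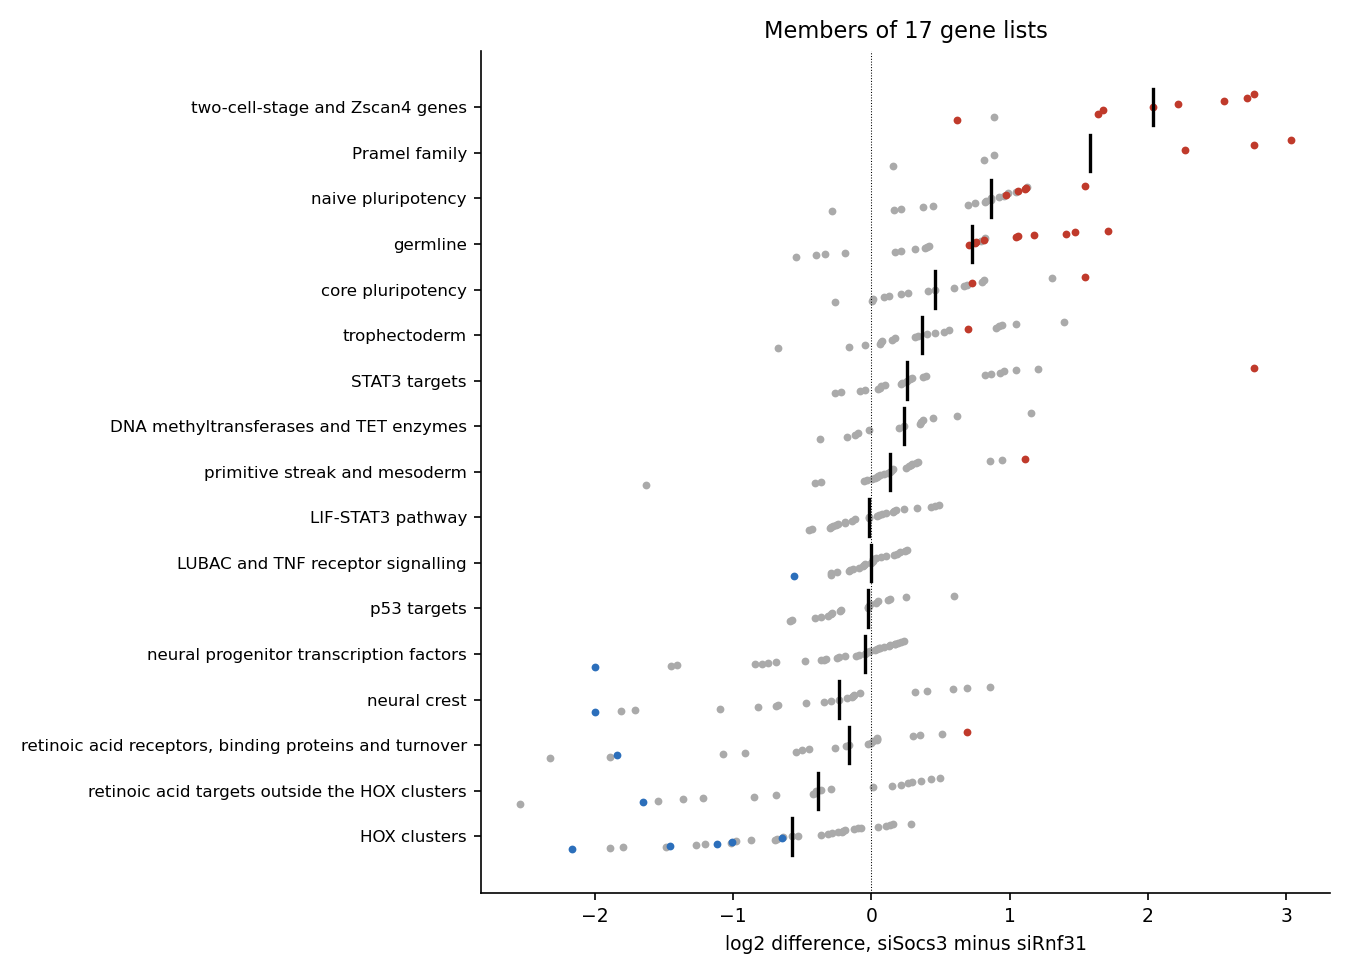
Difference (siSocs3 minus siRnf31, log2) of each measured member of 17 of the 37 gene lists, 1 point a gene, red for called higher, blue for called lower and grey for not called, with a black bar at the list median. The medians run from 2.03 for the cleavage-stage list at the top to -0.57 for the HOX clusters at the bottom, and the LIF-STAT3 (-0.02) and LUBAC (-0.01) lists lie on 0.

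The lists around the 2 targeted proteins held 0 and 1 called genes, beside 2.13% of all genes, and counts this small do not set a list apart from that share. In the LIF-STAT3 list, receptors, kinases, STATs and their inhibitors, 0 of 25 genes were called by limma, and the median was -0.02. An unadjusted p under 0.05 was found for 7 of the 25, beside 3072 of all 18194 genes. The transcription factor Stat3 differed by 0.04 ± 0.20 (adjusted p = 0.949), the receptor Lifr by 0.18 ± 0.16 (0.624) and the shared receptor subunit Il6st by -0.29 ± 0.13 (0.287). The members with the smallest p were the interleukin-6 receptor Il6ra (0.49 ± 0.13, adjusted p = 0.1) and Stat5a (0.46, adjusted p = 0.184). The related inhibitors Socs1 and Socs2 were at 0.43 ± 0.16 and -0.45 ± 0.16 (adjusted p = 0.221 and 0.206). Among 23 targets of STAT3, Pramel7 alone was called, and the median was 0.26. At an unadjusted p under 0.05, 8 of them were higher, beside 1514 of all 18194 genes. Sgk1, a kinase gene, read 11.92 and 11.55 against 10.67 and 10.39, a difference of 1.20 ± 0.30 that missed the threshold (adjusted p = 0.0834). The STAT motif TTCCNNGAA was found on either strand in 5.8% of the 207 higher genes with a RefSeq promoter window, in 3.61% of the 83 lower genes and in 5.32% of the 14453 measured genes with one. For TTCNNNGAA, which includes every match of the former motif, these shares were 7.25%, 4.82% and 8.57%. The windows run from 250 bases before to 50 after the start site, and a share here describes letters alone.

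In the LUBAC and TNF receptor list, 1 of 23 genes was called and the median was -0.01. Ikbkb, the kinase that releases NF-kB from its inhibitor, stood at 8.59 and 8.50 in siSocs3 and at 9.02 and 9.20 in siRnf31 and fell by 0.56 ± 0.10 (adjusted p = 0.03). It did not pass without any 1 of the 4 arrays. The partners of Rnf31 in the complex lay close to 0, with Rbck1 at 0.00 ± 0.16 and Sharpin at -0.06 ± 0.12 (adjusted p = 0.995 and 0.856). Of 21 NF-kB family members and targets, 0 were called by limma, and the median was 0.04. An unadjusted p under 0.05 was found for 4 of the 21, beside 3072 of all 18194 genes. The members of this list with the smallest p were Bcl3 (0.40 ± 0.12, adjusted p = 0.13), a nuclear partner of NF-kB, and the subunit Rel (0.63 ± 0.20, adjusted p = 0.155). Of 19 p53 targets, 0 were called and 3 had an unadjusted p under 0.05, beside the same 3072 of all genes. The cell cycle inhibitor Cdkn1a was at -0.59 ± 0.18 (adjusted p = 0.149).

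The HOX list held more called falls than any other list. Of 33 measured HOX genes, 5 were lower in siSocs3, beside 0.627% of all genes, and 0 were higher. Estimates were below 0 for 28 HOX genes, and the median was -0.57. Both siSocs3 arrays lay below both siRnf31 arrays in 22 of them, beside 24.1% of all genes. Hoxc8, a factor that patterns the trunk, stood at 6.42 and 6.82 in siSocs3 and at 8.55 and 9.03 in siRnf31. It fell by 2.17 ± 0.29 (adjusted p = 0.00993). Its neighbour Hoxc9 read 7.25 and 7.41 against 8.49 and 8.40 and fell by 1.11 ± 0.17 (adjusted p = 0.017). The groups were far apart in both genes. Hoxc10 fell by 1.01 ± 0.20 (adjusted p = 0.0429), but from levels of 6.31 and 5.68 in siRnf31, above the 5.46 and 5.14 of siNonTarget. Hoxb3, a hindbrain gene, read 6.94 and 7.19 against 8.19 and 8.87 and fell by 1.46 ± 0.31 (adjusted p = 0.0488). Hoxa5 read 10.48 and 10.63 against 11.22 and 11.18 and fell by 0.65 ± 0.13 (adjusted p = 0.0484). Larger estimates with larger errors were not called for Hoxb6 (-1.89 ± 0.52, adjusted p = 0.113) and Hoxd1 (-1.80 ± 0.41, 0.0655). Hoxb1, an early retinoic acid target, was at -0.87 ± 0.25 (adjusted p = 0.126), with siSocs3 at 9.81 and 10.11 and siRnf31 at 10.55 and 11.10. By position, all 15 genes numbered 1 to 6 in their clusters had both siSocs3 arrays below both siRnf31 arrays, with a median of -0.87. Among the 18 numbered 7 to 13 this held for 7, with a median of -0.21. This division was made after the values were seen and has no test. Leaving out 1 siSocs3 array reduced the HOX calls to 0 (replicate 1) or 1 (replicate 2), and leaving out 1 siRnf31 array to 2 (replicate 1) or 1 (replicate 2).

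**Figure D4:**
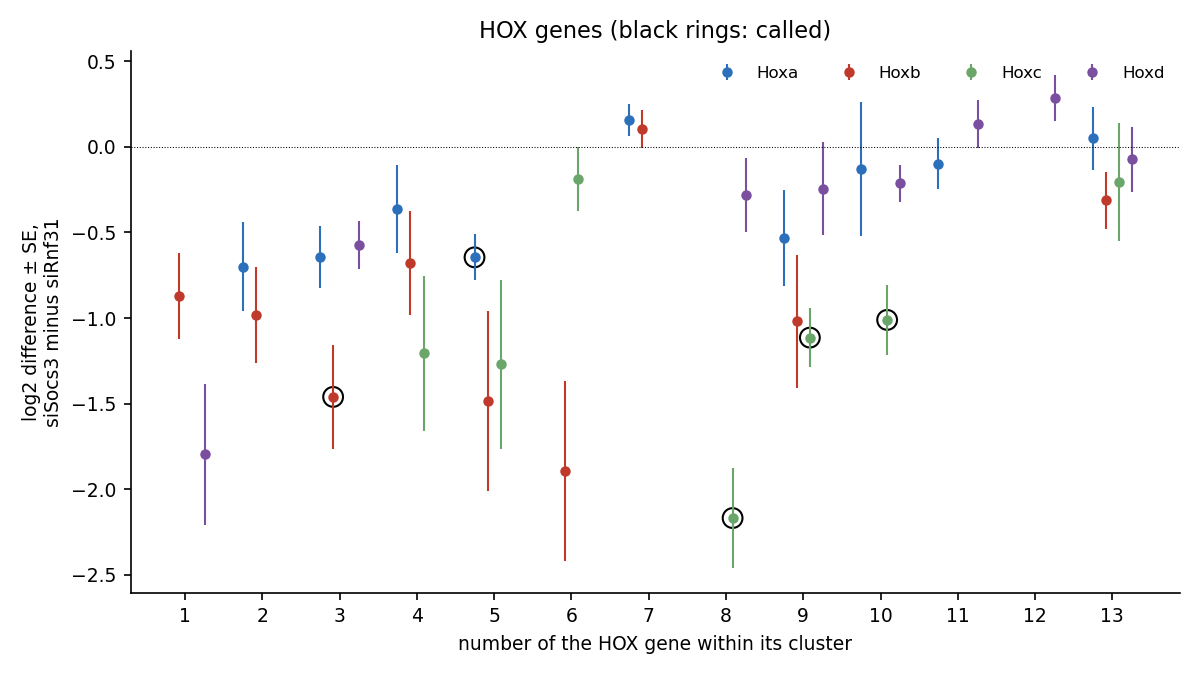
Difference (siSocs3 minus siRnf31, log2, with SE bars from limma, n = 2 arrays a group) of the 33 measured HOX genes by their number within the cluster, coloured by cluster, with black rings around the 5 called genes. All genes numbered 1 to 6 lie below 0, and Hoxc8 is the lowest at -2.17.

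Of 21 genes for retinoic acid receptors, binding proteins and turnover, 1 binding protein was called lower and 1 receptor higher, beside 2.13% of all genes. Counts of 1 do not set a list apart from that share. Crabp2, which carries retinoic acid to nuclear receptors, stood at 10.03 and 10.49 in siSocs3 and at 11.65 and 12.55 in siRnf31 and fell by 1.84 ± 0.38 (adjusted p = 0.0454). The siRnf31 arrays were both higher but well apart, and the call was lost without any 1 of the 4 arrays. Rxra, the common partner of retinoic acid receptors, read 8.23 and 8.01 against 7.34 and 7.52 and rose by 0.69 ± 0.12 (adjusted p = 0.0268). It also lost its call without any 1 of the arrays. Of the genes whose promoters are printed above, Rarb read 8.78 and 8.83 against 9.19 and 9.34, a difference of -0.46 ± 0.13 that missed the threshold (adjusted p = 0.118). Cyp26a1 was at 12.88 and 12.71 against 12.70 and 12.80, with a difference of 0.04 ± 0.14 (adjusted p = 0.926). Larger estimates for other enzymes of retinoid turnover were not called: Aldh1a7 (-2.32 ± 0.72, adjusted p = 0.149), Cyp1b1 (-1.89 ± 0.44, 0.0693) and Cyp26b1 (-1.07 ± 0.24, 0.0639). Over the 21 genes of this list, 1 was higher and 1 lower, and the median was -0.16. It was -0.050 without siSocs3 replicate 1 and 0.02 without siRnf31 replicate 2. Outside the HOX clusters, 1 of 20 known targets of retinoic acid was called lower and 0 higher, and the median was -0.38. At an unadjusted p under 0.05, 9 of the 20 were lower, beside 1558 of all 18194 genes. The called gene was Tshz1, a zinc finger factor of trunk identity, with 8.91 and 9.30 against 10.43 and 11.09 and a fall of 1.65 ± 0.34 (adjusted p = 0.0477), which was lost without any 1 of the arrays. The orphan receptor gene Nr2f1 had the largest estimate of the list, -2.54 ± 0.57, and was not called (adjusted p = 0.0625). The 2 response elements printed above were found, on either strand, in 0 of the called genes with a window, beside 1 and 3 of the 14453 measured genes.

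The other large falls came from genes of several functions. Zic1, a zinc finger factor of dorsal neural tissue and neural crest, stood at 5.30 and 6.23 in siSocs3 and at 7.89 and 7.63 in siRnf31 and fell by 2.0 ± 0.31 (adjusted p = 0.017). Sp8, a zinc finger factor of the forebrain and limb, read 5.00 and 5.46 against 6.93 and 7.08 and fell by 1.77 ± 0.34 (adjusted p = 0.0356). Cdh2 (N-cadherin), the adhesion molecule of neural epithelium, read 8.75 and 9.29 against 10.31 and 10.58 and fell by 1.42 ± 0.23 (adjusted p = 0.02). The siSocs3 arrays lay below the siRnf31 arrays in all 3. Gas1, a membrane co-receptor for Hedgehog, read 10.11 and 10.45 against 11.45 and 12.11 and fell by 1.5 ± 0.23 (adjusted p = 0.0166). Stox2 read 10.65 and 10.72 against 11.93 and 11.94, with almost no gap within a group, and fell by 1.25 ± 0.16 (adjusted p = 0.0093). Gap43, a growth cone protein, read 8.45 and 8.72 against 9.82 and 9.78 and fell by 1.22 ± 0.25 (adjusted p = 0.0456). Cracd fell by 1.73 ± 0.32 (adjusted p = 0.0327), the HMG-box gene Tox3 by 1.67 ± 0.35 (0.0488) and the fucosyltransferase gene Fut9 by 1.57 ± 0.30 (0.0361). Mecom, a zinc finger factor, fell by 1.36 ± 0.23 (adjusted p = 0.0217), and Gpc6, a cell surface proteoglycan, by 1.33 ± 0.21 (adjusted p = 0.017). Sp8, Gap43, Cracd, Tox3 and Fut9 lost their call without any 1 of the 4 arrays, and each of these falls lost it without siSocs3 replicate 1.

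The neural lists held 1 or 2 called genes each, beside 2.13% of all genes. Of 33 neural progenitor factors only Zic1 was called, and the median was -0.05. Pax6 was at -1.41 ± 0.32 (adjusted p = 0.0643), Sox1 at -1.45 ± 0.58 (0.247) and Nes at -0.34 ± 0.15 (0.282). Of 29 neuronal genes, Gap43 was lower and Dner, a Notch ligand of neurons, was higher (1.10 ± 0.20, adjusted p = 0.0321), and the median was -0.09. Of 42 axon guidance genes, the receptor gene Epha7 fell by 0.99 ± 0.18 (adjusted p = 0.0304) and the netrin receptor gene Dcc rose by 0.69 ± 0.13 (adjusted p = 0.0296), and the median was -0.12 (-0.18 without siSocs3 replicate 2). Of 21 neural crest genes only Zic1 was called, and the median was -0.24. Of 27 cadherin and adhesion genes only Cdh2 was, with a median of -0.12 (-0.032 to -0.12 with each array left out in turn).

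Germ layer and extraembryonic lists held 1 call each, beside 2.13% of all genes. A count of 1 does not set a list apart from that share. Besides Rhox5 among the extraembryonic endoderm genes, the called genes were Gsc and Ets2. Gsc, an organiser homeobox gene of the primitive streak and endoderm lists, stood at 5.21 and 5.06 in siSocs3 and at 3.90 and 4.14 in siRnf31. It rose by 1.11 ± 0.15 (adjusted p = 0.00993), from levels near the bottom of the range. Eomes, a T-box factor of streak and trophoblast, differed by 0.95 ± 0.27 (adjusted p = 0.124). The lists of 25 primitive streak, 13 definitive endoderm and 29 extraembryonic endoderm genes had medians of 0.13, 0.25 and 0.14. Without siSocs3 replicate 2 the definitive endoderm median was 0.14 and the extraembryonic endoderm median 0.004, and without siRnf31 replicate 1 they were 0.15 and 0.085. Sox17 (-0.03 ± 0.53), Gata4 (0.19 ± 0.29) and Gata6 (0.26 ± 0.22) were not called, with adjusted p-values of 0.604 or more. Trophectoderm genes, 20 in all, had a median of 0.37 with Ets2 called, as described below. Cdx2, the trophectoderm factor, was at 0.15 ± 0.41 and Cdx1 at 0.36 ± 0.29 (adjusted p = 0.903 and 0.592).

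The signalling, hypoxia and interferon lists held few called genes, beside 2.13% of all genes. Counts this small do not set a list apart from that share. Fgf1, a fibroblast growth factor, stood at 9.19 and 8.70 in siSocs3 and at 6.45 and 7.37 in siRnf31 and rose by 2.04 ± 0.27 (adjusted p = 0.00975). It was the 1 called gene of 27 FGF ligands, receptors and ERK feedback genes, whose median was 0.04. Of 42 Wnt genes, the receptor gene Fzd8 fell by 0.85 ± 0.14 (adjusted p = 0.0227), and the median was -0.16 (-0.073 without siSocs3 replicate 1, -0.28 without siSocs3 replicate 2). Of 24 Notch genes, the bHLH factor gene Hes6 fell by 0.60 ± 0.10 (adjusted p = 0.0213) beside the rise of Dner, and the median was -0.09. Of 35 BMP, Nodal and TGF-beta genes, 0 were called by limma and 8 had an unadjusted p under 0.05, beside 3072 of all 18194. Ndrg1, a stress gene of the hypoxia list, read 7.58 and 7.51 against 6.17 and 5.92 and rose by 1.5 ± 0.14 (adjusted p = 0.00307), while the list of 24 had a median of 0.06. Oas1a, an antiviral enzyme of the interferon response, read 8.41 and 8.25 against 7.19 and 7.38 and rose by 1.04 ± 0.12 (adjusted p = 0.00768), with a list median of 0.10 over 17 genes. Ndrg1 passed without each array in turn. Oas1a did so for all but siSocs3 replicate 1.

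No gene was called by limma among 37 proteasome subunits, 22 sterol synthesis genes, 25 ribosome biogenesis and MYC targets, 19 mitotic regulators, 26 D-type cyclins and G1 regulators, and 25 collagens and laminins. At an unadjusted p under 0.05 there were 3, 0, 6, 2, 8 and 4 of them, beside 3072 of all 18194 genes. The medians of these lists lay between -0.13 and 0.13. Those of the cyclin and mitotic lists moved to -0.068 without siRnf31 replicate 1 and to 0.048 without siRnf31 replicate 2. The largest estimate was that of Ccnd2, a D-type cyclin, at -1.73 ± 0.38 (adjusted p = 0.0579). In all, the 37 lists hold 768 distinct measured genes, of which 49 were called, 35 higher and 14 lower, beside 387 of all 18194. The other 338 called genes belonged to none of the lists.

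The siNonTarget, siSox17 and siFbxw7 arrays were used to describe on which side of the comparison the called genes stood apart. In 380 of the 387 called genes (98.2%), both siSocs3 arrays lay outside the range of these 6 arrays, which held for 25.8% of all genes. Both siRnf31 arrays did so in 27 (6.98%), beside 5.63% of all genes. This rule is harder to meet for a group whose arrays differ from each other. Gaps of 2-fold or more between replicates were seen in 105 genes for siRnf31 and in 13 for siSocs3. The part of this unequal spread in the counts was not tested. In 357 only siSocs3 stood apart, beside 4252 of all 18194 genes. The siNonTarget mean was nearer to siRnf31 than to siSocs3 in 382 of the 387, beside 12354 of all 18194 genes. On a scale with the siRnf31 mean at 0 and the siSocs3 mean at 1, the median position of siNonTarget was -0.03 for the higher and -0.15 for the lower genes. The siSox17 arrays lay at 0.01 for the higher genes but at 0.22 for the lower ones. The siFbxw7 arrays lay at -0.07 and 0.02. These positions share the compared arrays with the calls and are a description. From the same fit, against siNonTarget, 1684 genes were called for siSocs3 and 0 for siRnf31 by limma (1068 for siRnf31 at an unadjusted p under 0.05). Those comparisons share the control arrays. Tcstv3 was an example, with siNonTarget at 3.40 and 3.68, close to the 3.17 and 3.75 of siRnf31.

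**Figure D5:**
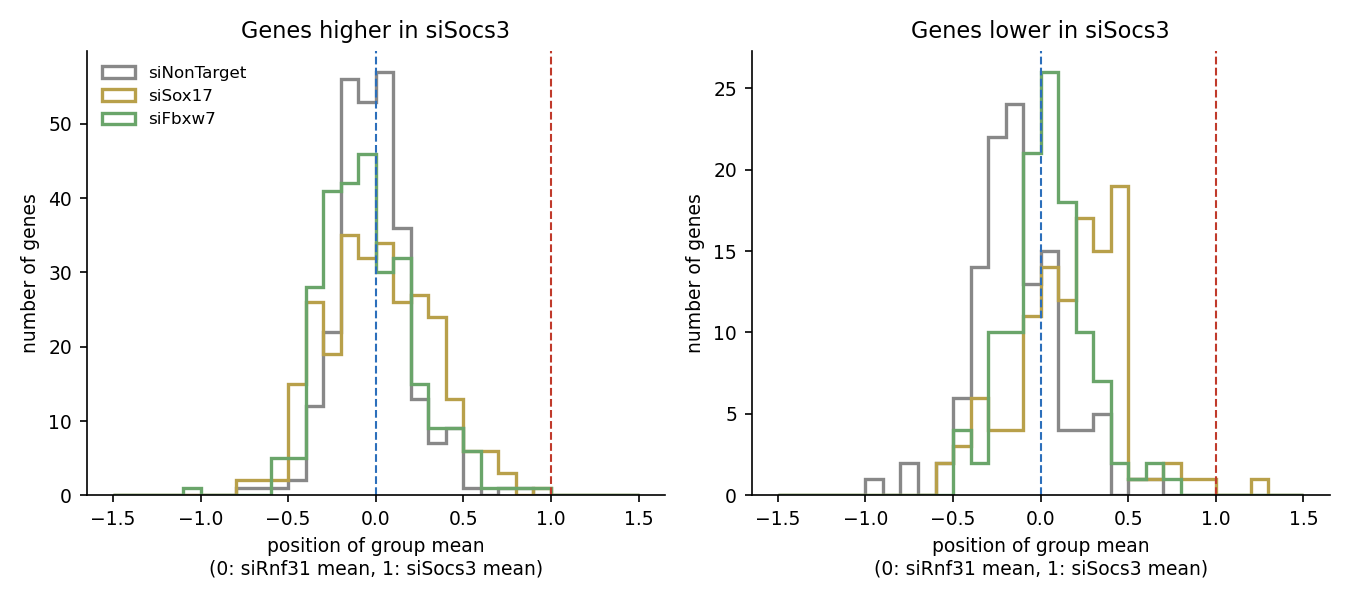
Number of called genes by the position of the siNonTarget, siSox17 and siFbxw7 means on a scale where 0 (blue dashed line) is the siRnf31 mean and 1 (red dashed line) the siSocs3 mean, for the 273 higher (left) and 114 lower genes (right). The siNonTarget means gather near 0, with medians of -0.03 and -0.15, and the siSox17 means of the lower genes are shifted toward 1, with a median of 0.22.

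Exceptions in which siRnf31 alone stood apart were 4 called genes, beside 582 of all 18194 genes. Ets2, a transcription factor of trophoblast, stood at 9.22 and 9.46 in siSocs3, 9.14 and 9.35 in siNonTarget, and 8.76 and 8.54 in siRnf31. The difference of 0.70 ± 0.13 (adjusted p = 0.0327) thus went with a lower level in siRnf31. Against siNonTarget, siRnf31 differed by -0.60 ± 0.13 and the gene was not called (limma adjusted p = 0.778). The others were Apobec2 (1.48 ± 0.30, adjusted p = 0.0436), Apof (0.71 ± 0.14, 0.0436) and Spata1 (-0.61 ± 0.11, 0.0252). In 13 further called genes both groups stood apart on opposite sides of the other 6 arrays, beside 44 of all 18194 genes.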

How the data were processed

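For each sample, 5 ng of RNA was amplified and labelled with biotin, per the labels' protocols, and hybridised to a 1-colour Affymetrix array of 45101 probe sets. The deposited values are linear intensities (5.05 to 31606.3) that the authors made with RMA, as the submitters' processing notes name it. This method subtracts background, equalises the distributions of arrays and summarises probes, so it hides any shift common to most genes. Its version and the scan dates were not given in the sources used here.

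All intensities were taken to log2. Of the probe sets, 34958 had 1 gene symbol in the platform annotation, 932 had several (not used) and 9211 had no entry. Gene IDs of 34754 matched RefSeq (GRCm38.p6). Each gene was read from the probe set of highest mean across the 10 arrays, giving 18194 genes (9182 with 1 probe set), with no filter on dim genes. One model over the 5 groups was fitted in R 4.3.3 with lmFit and eBayes of limma 3.58.1. It had 5 residual degrees of freedom and a prior of 3.98 more with an SD of 0.129, and siSocs3 was set against siRnf31. The two-sided p-values were adjusted by Benjamini-Hochberg over all genes with a threshold of 0.05. The number of arrays limits the precision: an exact permutation test of 2 against 2 arrays cannot go below p = 0.333.

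The comparison and the 37 gene lists (926 entries, 860 matched) were chosen with earlier results of these data known. The naming rule took the targeted genes, the 15 largest called rises and falls (clone-like names skipped), up to 6 called members of each list or the 2 smallest p where none was called, and a fixed set of lineage genes. Arg2, Duxf3, Stk31, Tex101, Tex19.2, Tdrd12, Apobec2, Apof, Spata1, Nr2f1, Dusp6 and other uncalled members were named after their values were seen. Motifs were searched on both strands of RefSeq promoters (250 bases before to 50 after the start). The 17 alternatives, covering the fit, normalization, dim genes, probe sets, an offset and each array left out, are described with their effect in the closing section. Plots used matplotlib 3.10.9 under Python 3.11.15.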

Additional observations from a re-analysis of the deposited data

How the results depend on the processing

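Of the 17 alternatives, none turned the sign of a called gene that it tested by the same probe set. Testing every probe set alone gave 470 calls and kept the sign in every probe set for 334 of the 387 genes. The fit without the siSox17 arrays called 222 genes (180 higher, 42 lower), of which 221 were among the 387. The fit without the siFbxw7 arrays called 230 lower genes and 75 list members instead of 114 and 49. Without the dimmest 50% of genes, 245 were called, 149 of them higher and 91 at least 2-fold. Adding 16 before log2 left 114 genes at least 2-fold, and averaging the probe sets of a gene left 66 lower genes. With the replicate number as a block, 316 genes were called, 237 higher and 79 lower, with 150 at least 2-fold and 42 list members. Between siSocs3 and siRnf31, the gaps from replicate 1 to replicate 2 did not go together (correlation 0.03 across genes). The numbers were therefore not taken to pair samples in this comparison. Where the closest array was from another group, it had the same number. The first siRnf31 array lay closest to the first of siSox17 (r = 0.9967), and the second to the second of siNonTarget (0.9971). Both siSocs3 arrays and the first of siSox17 lay closest to their own replicate. A shift by number across all groups was not tested beyond the block. Leaving out each array in turn gave 22 to 160 called genes, 22 to 126 higher, 0 to 34 lower, 22 to 124 at least 2-fold and 4 to 29 list members, with the lone array assumed to vary like the other groups. With each array left out in turn, the median of the retinoic acid receptor and turnover list ran from -0.24 (without siRnf31 replicate 1) to 0.020 (without siRnf31 replicate 2), beside -0.16 with all arrays. That of the 10 fibroblast feeder markers ran from -0.52 (without siRnf31 replicate 1) to 0.11 (without siRnf31 replicate 2), was 0.01 without siSocs3 replicate 1, and was -0.11 with all arrays. The cause of these shifts was not tested, beyond fewer arrays or genes entering the fit. Among the genes chosen by the naming rule, 1597 values under the alternatives stayed on the same side of the threshold, 254 lost the call and 19 gained one. Quantile normalization (351 calls), median centring (392) and a trended, robust prior (413) stayed within 1.5 times of the count of 387. Dim genes lie close to background, which compresses differences, and 2 arrays a group leave gaps between replicates poorly known.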

Other observations

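Some called genes lay beside each other in RefSeq gene order (GRCm38.p6), and the share that chance would give was not computed. Allowing at most 3 steps between measured genes, the longest run was on chromosome 13, where all 7 measured genes of the span were higher in siSocs3: AF067063, D13Ertd608e, Tcstv1, Gm20767, AF067061, BC147527 and Tcstv3. Their sequences were not compared here, and a probe set may read more than 1 of them, so the 7 may not be independent. BC147527 differed by 2.40 ± 0.17 (limma adjusted p = 0.00149) and AF067063 by 2.32 ± 0.34 (adjusted p = 0.0122). A run of 4 on chromosome 7 held the oocyte and embryo homeobox genes Obox2, Obox3 and Obox6 with Crxos. Obox6 read 7.95 and 7.65 in siSocs3 and 5.25 and 6.20 in siRnf31, a rise of 2.07 ± 0.27 (adjusted p = 0.00988). Of the 4 measured Obox genes, 3 were called higher, beside 1.5% of all genes.

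Other families were looked up after the values were seen, so their counts are descriptions. Over all genes, 1.5% were called higher and 0.627% lower. Several of these families held few calls: Trim had 1 higher of 59 measured genes, Ccl 1 higher of 18 and Cxcl 0 of 13. Usp had 1 higher and 1 lower of 52, and Rnf had 1 higher and 2 lower of 78. Of 18 measured Serpinb genes, which encode intracellular protease inhibitors, 4 were higher, and 17 had estimates above 0. The 4 called genes lie in 2 runs on chromosome 13. Serpinb9g stood at 4.33 and 4.78 in siSocs3 and at 2.76 and 2.88 in siRnf31 and rose by 1.73 ± 0.16 (adjusted p = 0.00313), from levels at the bottom of the range, so the true size may be larger. Of 13 measured Hspa chaperone genes, the adjacent heat-inducible pair Hspa1a and Hspa1b rose, by 1.92 ± 0.25 and 1.06 ± 0.20 (adjusted p = 0.0093 and 0.0329), and the family median was 0.06. Hspa1a read 10.09 and 9.49 against 7.74 and 8.01. In the other direction, 3 of 6 measured Armcx genes, a family of X-linked armadillo repeat proteins, were lower and lay in 1 run: Armcx3 fell by 0.90 ± 0.15, Armcx4 by 0.80 ± 0.11 and Armcx1 by 0.60 ± 0.10. Their adjusted p-values were 0.0223, 0.00993 and 0.023.

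The largest called fall of all belonged to C130071C03Rik, a clone-named transcript that the naming rule skipped, at -2.36 ± 0.28 (adjusted p = 0.00796). Of the 193 called genes with further probe sets, 53 had at least 1 probe set with a difference of the opposite sign. Among the named genes these were Mecom, Epha7, Cracd, Fgf1 and Stox2, each through probe sets with mean levels of 5.07 or less. Both siSocs3 and siRnf31 stood apart from the other 6 arrays, on opposite sides, for 13 called genes, beside 44 of all 18194 genes. One of the 13 was Utp14b, a ribosome biogenesis gene needed in male germ cells, which rose by 1.19 ± 0.10.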
